A study of Ovis aries with 10 samples.

Results

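The genes described here mark the mammillary, lateral and posterior hypothalamus, regions that border the mediobasal hypothalamus of the ewe. They are the transcription factors FOXB1, LHX5, LMX1A, LMX1B, BARHL1 and LHX9, the peptide precursors PMCH and HCRT, and the enzyme HDC. They were taken by symbol from a table of read counts of 33775 genes, and all 9 were found in it. The samples were mediobasal hypothalamus from 20 adult Ile-de-France ewes, of which 10 were in the follicular phase and 10 in the luteal phase. RNA of 2 ewes of one phase, drawn at random, was mixed in equal amounts for each library, which gave 5 libraries per phase. No other treatment or genetic change is named for these ewes, and the phases share no ewe. The sample titles name the tissue as the mediobasal hypothalamus, and the sources used here do not give the borders of the dissected block.

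The mammillary bodies lie at the caudal end of the hypothalamus, behind the arcuate nucleus, and FOXB1 and LHX5 are transcription factors used in their formation. LMX1A, LMX1B and BARHL1 belong to the posterior hypothalamus and the neighbouring subthalamic region, and LMX1A and LMX1B also specify the dopamine neurons of the midbrain. The lateral hypothalamus holds 2 intermingled sets of wake and appetite neurons, one making melanin-concentrating hormone from PMCH and one making orexins from HCRT. LHX9 is a LIM homeodomain factor of the orexin neurons. HDC, histidine decarboxylase, makes histamine, and in the brain its neurons sit in the tuberomammillary nucleus beside the mammillary bodies. Outside neurons HDC is made by mast cells.

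Markers of the arcuate nucleus were present: POMC, the melanocortin precursor of the arcuate nucleus, ran from 404.6 to 1371 CPM over the 10 libraries (CPM, a gene's reads relative to the TMM-scaled library total, per 1000000 reads). Library totals ran from 20644992 to 43193449 reads, with follicular 1 and follicular 3 the smallest. The first principal component of the libraries, the main axis along which they differ over all genes tested, held 51% of the variance. Follicular 1, 3 and 4 had its highest scores and follicular 5, luteal 3 and luteal 5 its lowest. That axis ran against the total reads of the libraries (Pearson's r = -0.67, permutation p = 0.0409; Spearman's rho = -0.56, permutation p = 0.0985; r = -0.24 without the 2 libraries farthest from the median total).

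None of the 9 genes passed the test between phases, and the largest difference was that of HDC. The edgeR quasi-likelihood test with Benjamini-Hochberg adjustment was applied to 18276 genes with enough reads, and 7 of the 9 genes were among them. BARHL1 and LHX9 had too few reads. Of the 7 tested, 0 passed at an adjusted p of 0.05, where 0% of all genes tested passed. At an unadjusted p under 0.05 there was 1 of 7, HDC, against 11.4% of all genes tested, made up of 4.27% that were higher and 7.12% that were lower in luteal libraries. DESeq2 called 0 of the 7 and 0.159% of all genes (29 genes), and limma-voom called 0 of the 7 and 0 genes in all. For 0 of the 9 genes did the luteal values lie entirely to one side of the follicular values, which held for 1.12% of all genes tested.

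**Figure D1:**
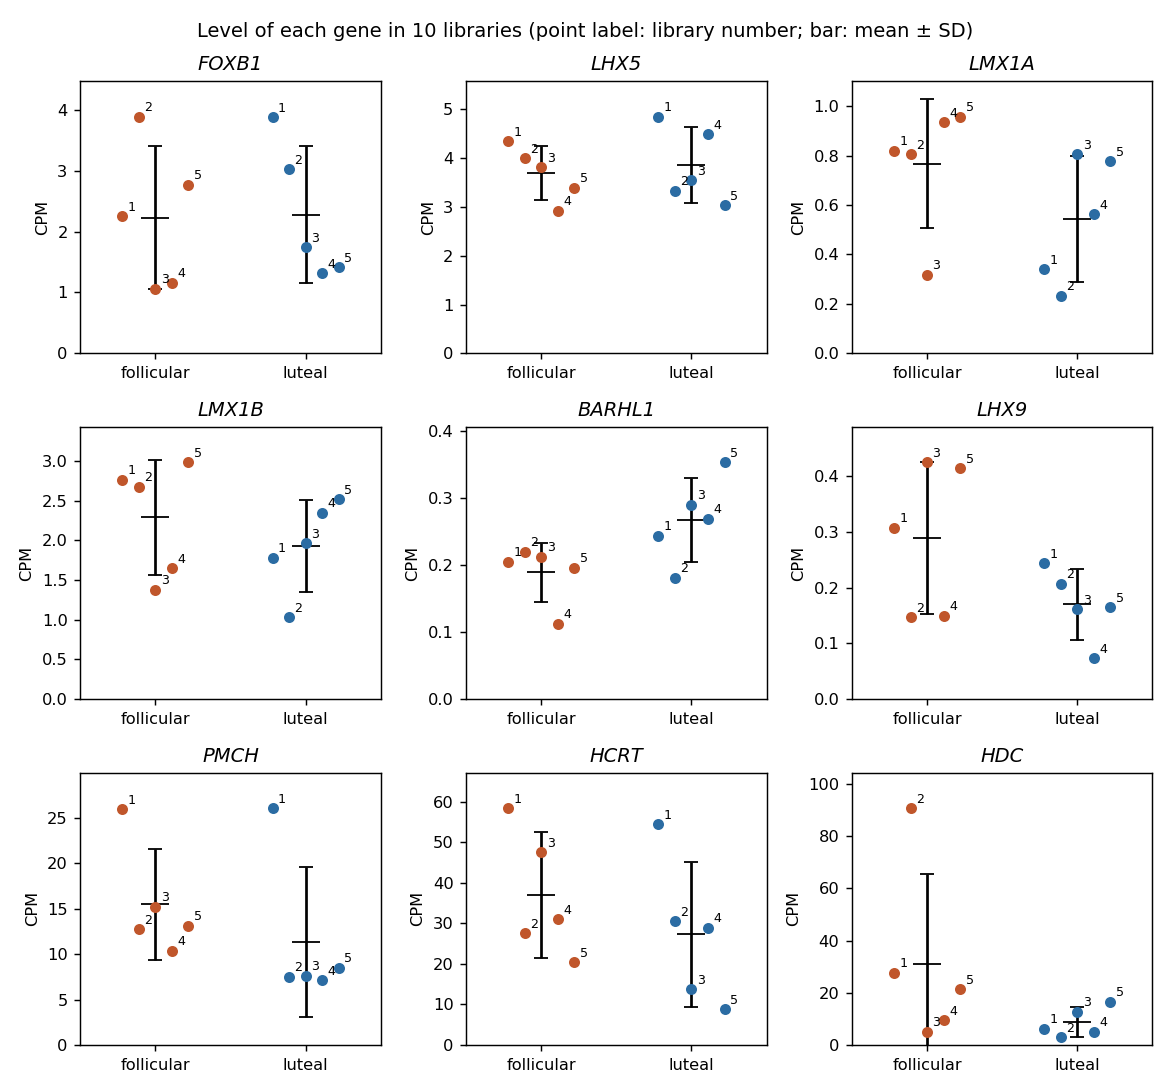
CPM of each gene (vertical axes, each from 0) in the 5 follicular (orange) and 5 luteal (blue) libraries, numbered by library, with bars for the mean ± SD; the lower end of the follicular HDC bar is cut off at 0. HDC is set apart by follicular 2 at 90.7 CPM and PMCH by follicular 1 and luteal 1 at 25.97 and 26.08 CPM, and the phases overlap in all 9 genes.

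HDC differed between libraries more than any of the other 8 genes. It stood at 27.6, 90.7, 5.04, 9.44 and 21.4 CPM in follicular libraries 1 to 5. In luteal libraries 1 to 5 it stood at 6.22, 2.98, 12.7, 5.01 and 16.6 CPM. Follicular 2 was the highest of all and luteal 2 the lowest, 30.5-fold apart, and follicular 3 and 4 lay inside the luteal range. The counts behind these values ran from 95 to 2474 reads, so that counting error alone would give a coefficient of variation of 4.09% against the 132% observed over the 10 libraries. On the log2 scale the SD of HDC over the 10 libraries was 1.45, and 99.9% of the 2283 tested genes whose mean level lay within 0.5 log2 units had a smaller one.

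The mean of HDC was 30.8 ± 34.7 CPM over the follicular libraries and 8.69 ± 5.70 CPM over the luteal ones (SD, n = 5 libraries each). The log2 fold change of luteal over follicular was -1.83 (SE 0.71, edgeR adjusted p = 0.426). This difference rested to a large part on 1 library: without follicular 2 the follicular mean was 15.9 CPM and the log2 fold change -0.86 (edgeR adjusted p = 0.470). In bulk tissue fewer cells of a type and less RNA per cell cannot be told apart, here and in what follows.

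The listed mast cell markers differed widely in level. Of 9 listed, 6 were in the table, and TPSAB1, CMA1 and CTSG were not, so their level is unknown. CPA3, the mast cell carboxypeptidase, reached at most 0.024 CPM and MS4A2, the beta chain of the IgE receptor, 0.053 CPM. FCER1A, its alpha chain, reached 0.073 CPM and HPGDS 0.15 CPM. KIT ran from 3.64 to 20.9 CPM. The part of mast cells in the HDC values was not tested beyond the score below. The summed level of the list ran from 243 to 443 CPM in follicular and from 223 to 496 CPM in luteal libraries. Almost all of it was GATA2, a transcription factor that other brain and pituitary cells also make, at 213.8 to 486.7 CPM. HDC and the mean score of the list, which rested on KIT and GATA2 alone, had r = -0.22 over 10 libraries (permutation p = 0.546; rho = -0.15, permutation p = 0.682; adjusted p = 0.915 over 35 relations; r = -0.12 without the 2 libraries farthest from the median score).

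The other tested genes of the histamine list varied less between libraries. SLC18A2, the vesicular transporter that loads histamine and the other monoamines, stood at 9.42, 21.2, 6.26, 7.53 and 12.1 CPM in follicular libraries 1 to 5. Its luteal values were 7.22, 8.26, 11.9, 7.75 and 11.3 CPM. Follicular 2 was again the highest library and follicular 3 the lowest, and the phases overlapped (log2 fold change -0.29, SE 0.31, edgeR adjusted p = 0.616). Of 13 listed genes for histamine transport, breakdown, receptors and neighbouring markers, 10 were tested, 4 higher and 6 lower in luteal libraries, with a median log2 fold change of -0.05 against 0.01 over all genes tested. In this list 0 genes passed in either direction. Those with the smallest p were WIF1, a secreted Wnt inhibitor, at 93.6 and 173.9 CPM in follicular and luteal means (log2 fold change 0.89, SE 0.28, edgeR adjusted p = 0.426), HRH3, the presynaptic histamine receptor, at 54.6 and 43.3 CPM (-0.33, SE 0.25, adjusted p = 0.496), and HRH2, another histamine receptor, at 7.18 and 6.48 CPM (-0.15, SE 0.16, adjusted p = 0.611).

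Among the posterior transcription factors, LMX1A and LMX1B averaged lower in luteal libraries without passing the test. LMX1B stood at 2.77, 2.68, 1.38, 1.65 and 2.98 CPM in follicular libraries 1 to 5 and at 1.78, 1.03, 1.97, 2.35 and 2.52 CPM in luteal libraries 1 to 5. Its means were 2.29 ± 0.72 and 1.93 ± 0.58 CPM (SD, n = 5 libraries each; log2 fold change -0.25, SE 0.29, edgeR adjusted p = 0.640). Follicular 3 and luteal 2 were the low libraries of their phases, as they were for HDC, and the log2 fold change was -0.10 without luteal 2 and -0.38 without follicular 3.

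LMX1A stood at 0.82, 0.81, 0.32, 0.94 and 0.96 CPM in follicular and at 0.34, 0.23, 0.81, 0.56 and 0.78 CPM in luteal libraries 1 to 5. These rested on 6 to 44 reads, and the lowest value, 0.23 CPM in luteal 2, had an exact 95% Poisson interval of 0.11 to 0.44 CPM, and the highest, 0.96 CPM in follicular 5, one of 0.70 to 1.29 CPM. Such intervals cover counting error only. The means were 0.77 ± 0.26 and 0.54 ± 0.26 CPM (SD, n = 5 libraries each; log2 fold change -0.52, SE 0.38, edgeR adjusted p = 0.495). Again follicular 3 and luteal 2 were the lowest of their phases, and without luteal 2 the log2 fold change was -0.33.

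LMX1A is also made by the choroid plexus, and both factors by midbrain dopamine neurons. Of 12 listed choroid plexus and roof plate genes 9 were tested, with 8 higher and 1 lower in luteal libraries and a median log2 fold change of 0.26. Here 0 passed in either direction, the smallest p being that of the bicarbonate transporter SLC4A5 (log2 fold change 1.09, SE 0.29, edgeR adjusted p = 0.426). Their summed level was 330.4 to 456 CPM in follicular and 344.1 to 529.7 CPM in luteal libraries, most of it MSX1. LMX1A had r = 0.17 with the choroid plexus score over 10 libraries (permutation p = 0.644; rho = 0.20, permutation p = 0.584; adjusted p = 0.915 over 35 relations; r = 0.04 without the 2 libraries farthest from the median score). Over deviations from the phase means, that is with each phase's own mean taken off, r of LMX1A with that score was 0.57, which was not tested. Of 10 listed genes of midbrain dopamine neurons 8 were tested, 5 higher and 3 lower, with a median of 0.06 and 0 passing in either direction. EN1, which marks the midbrain, reached at most 0.37 CPM, and SLC6A3, the dopamine transporter, ran from 1.35 to 5.25 CPM (log2 fold change -0.66, SE 0.27, edgeR adjusted p = 0.426). In the other direction, NR4A2 averaged 22.1 and 28.7 CPM in follicular and luteal libraries (log2 fold change 0.38, SE 0.18, edgeR adjusted p = 0.426). RET likewise averaged 48.25 and 58.42 CPM (0.27, SE 0.14, adjusted p = 0.430). The part of these neighbouring tissues in the LMX1A and LMX1B values was not tested.

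BARHL1 was too low for a comparison of single libraries. It had 3 to 15 reads per library, at 0.20, 0.22, 0.21, 0.11 and 0.20 CPM in follicular and 0.24, 0.18, 0.29, 0.27 and 0.35 CPM in luteal libraries 1 to 5. The observed coefficient of variation over the 10 libraries, 28.8%, was below the 38.1% that counting error alone would give. The phases overlapped, with means of 0.19 ± 0.04 and 0.27 ± 0.06 CPM (SD, n = 5 libraries each). In a fit without the filter on low counts, added after seeing the data, the log2 fold change was 0.51 (SE 0.36, edgeR adjusted p = 0.547).

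FOXB1 and LHX5, the mammillary factors, had nearly equal means in both phases. FOXB1 stood at 2.25, 3.89, 1.06, 1.16 and 2.77 CPM in follicular and at 3.88, 3.03, 1.74, 1.32 and 1.41 CPM in luteal libraries 1 to 5. Follicular 2 and luteal 1 were the highest and follicular 3 and 4 the lowest, a spread of 3.66-fold within the follicular and 2.94-fold within the luteal phase. The means were 2.23 ± 1.18 and 2.28 ± 1.13 CPM (SD, n = 5 libraries each; log2 fold change 0.02, SE 0.41, edgeR adjusted p = 0.982), and the 95% interval of the log2 fold change ran from -0.88 to 0.92.

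LHX5 was the steadiest of the 7 tested genes. It ran from 2.92 to 4.35 CPM in follicular libraries, with a median of 3.82, and from 3.04 to 4.86 CPM in luteal libraries, with a median of 3.54, luteal 1 highest and luteal 5 lowest. The phases overlapped over nearly their whole ranges (means 3.70 ± 0.55 and 3.86 ± 0.78 CPM, SD, n = 5 libraries each; log2 fold change 0.06, SE 0.19, edgeR adjusted p = 0.868). Its coefficient of variation over the 10 libraries was 17.1% against 9.36% from counting error, and 13.4% of the 1543 tested genes of similar level had a smaller SD on the log2 scale. The 95% interval of its log2 fold change, -0.35 to 0.47, was the narrowest of the 7. The direction of the small differences of both genes turned when single libraries were left out: without luteal 1 the log2 fold change was -0.26 for FOXB1 and -0.03 for LHX5.

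**Figure D2:**
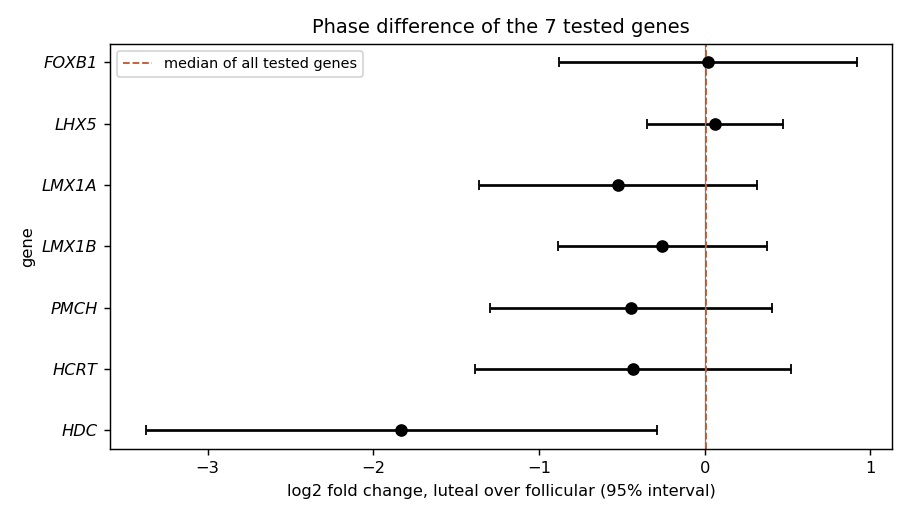
Log2 fold change of luteal over follicular libraries (horizontal axis) with its 95% interval for the 7 tested genes, from the edgeR fit of all genes; the dashed line is the median of all genes tested. The intervals of 6 genes include 0, and that of HDC, from -3.37 to -0.29, does not before adjustment over all genes.

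Of 17 other listed regulators and markers of the mammillary and posterior hypothalamus, 15 were tested and 0 passed in either direction. There were 8 higher and 7 lower in luteal libraries, with a median log2 fold change of 0.0049 against 0.01 over all genes tested, and 3 of the 15 had an unadjusted p under 0.05 against 11.4% of all genes tested. SIM2, a mammillary factor, ran from 0.68 to 0.99 CPM in follicular and from 0.15 to 0.61 CPM in luteal libraries, with no overlap (log2 fold change -1.01, SE 0.37, edgeR adjusted p = 0.426). The phases did not overlap for 1.12% of all genes tested, and SLC4A5 and TRH of the other lists were among them. SIM2 was low, and its 0.15 CPM in luteal 4 stood near the 0.0733 CPM that 3 counts give there. CALB2, the calcium-binding protein calretinin, averaged 361.4 and 234.3 CPM (-0.62, SE 0.23, adjusted p = 0.426), and UNCX, a homeodomain factor, 0.98 and 0.59 CPM (-0.72, SE 0.29, adjusted p = 0.426). FOXA2 had 0 reads in every library, and a count of 0 allows up to 0.159 CPM in the smallest of them (3 counts).

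The lateral hypothalamic peptides averaged lower in luteal libraries, again without passing. PMCH stood at 25.97, 12.8, 15.2, 10.4 and 13.1 CPM in follicular and at 26.08, 7.50, 7.64, 7.11 and 8.50 CPM in luteal libraries 1 to 5. Luteal 1 equalled the highest follicular library, and the other 4 luteal libraries all lay below the lowest follicular one. The means were 15.5 ± 6.10 and 11.4 ± 8.24 CPM (SD, n = 5 libraries each; log2 fold change -0.44, SE 0.39, edgeR adjusted p = 0.552). Without luteal 1 the luteal mean was 7.69 CPM and the log2 fold change -1.01, with an edgeR adjusted p of 0.294; over all single libraries left out it ran up to 0.859. The difference was smaller without follicular 1 and 3 together (log2 fold change -0.09, edgeR adjusted p = 0.994) and in a fit that included the first principal component (-0.12, edgeR adjusted p = 0.958). Luteal 1 was picked for its distance from the rest, so the value without it is a description. Follicular 1 and 3 were the highest follicular libraries for PMCH, so the value without them is a description too.

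HCRT stood at 58.4, 27.5, 47.6, 31.0 and 20.4 CPM in follicular and at 54.5, 30.6, 13.8, 28.9 and 8.83 CPM in luteal libraries 1 to 5. Follicular 1 and luteal 1 were the highest of their phases, as for PMCH, and luteal 3 and 5 were below all others. The means were 37.0 ± 15.6 and 27.3 ± 17.9 CPM (SD, n = 5 libraries each; log2 fold change -0.43, SE 0.44, edgeR adjusted p = 0.602). On the log2 scale its SD over 10 libraries was 0.86, and 99.5% of the 2876 tested genes of similar level had a smaller one. Without follicular 1 and 3, the 2 smallest libraries, the log2 fold change was 0.06 (edgeR adjusted p = 0.994). These were also the 2 follicular libraries with the most HCRT, so leaving them out lowers the follicular mean and the value is a description. With log2 total reads HCRT had r = -0.40 (permutation p = 0.246), and 0.08 without these 2 libraries.

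HCRT followed the main axis of the libraries. Its log2 CPM had r = 0.87 with the first principal component (permutation p = 0.00112; rho = 0.89, permutation p = 0.00118), the single relation of 35 between 7 genes and 5 library measures that passed after adjustment (adjusted p = 0.0392). Without the 2 libraries farthest out on the component, follicular 3 and luteal 5, r was 0.83, and over deviations from the phase means it was 0.85. With that component as a covariate the log2 fold change of HCRT was 0.20 (edgeR adjusted p = 0.876). The same relation was r = 0.56 for PMCH (permutation p = 0.0929; rho = 0.48, permutation p = 0.168; adjusted p = 0.406; r = 0.52 without the 2 farthest libraries), and it was between -0.25 and 0.41 for the other 5 tested genes. The part of this axis in the HCRT values was not tested beyond these fits. The axis held 51% of the variance over all genes tested, and the share of those genes with an r as high was not computed. The relation is therefore not shown to be particular to HCRT.

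**Figure D3:**
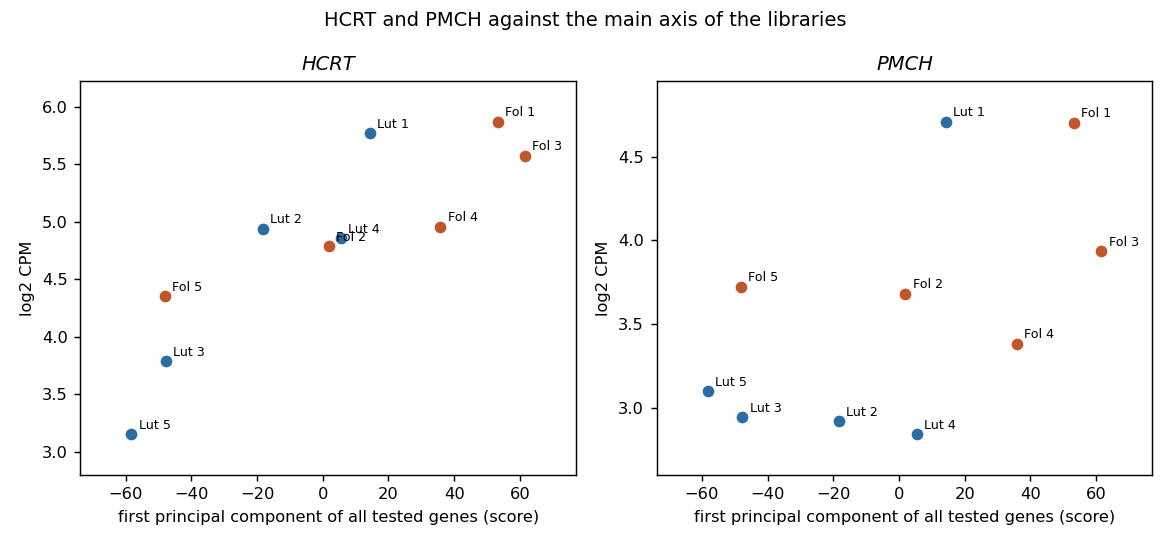
Log2 CPM of HCRT (left) and PMCH (right) against the score of each library on the first principal component of all genes tested, follicular in orange and luteal in blue. HCRT falls along the axis from follicular 1 and 3 to luteal 5 (r = 0.87), while PMCH separates follicular 1 and luteal 1 from the other libraries.

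HCRT exceeded PMCH in reads in every library, by an amount that varied. The ratio of HCRT to PMCH, in CPM and not corrected for transcript length, was 2.25, 2.16, 3.12, 2.99 and 1.55 in follicular and 2.09, 4.08, 1.80, 4.07 and 1.04 in luteal libraries 1 to 5. Luteal 2 and 4 had the highest ratios and luteal 5 the lowest. The mean log2 ratio was 1.22 ± 0.41 and 1.20 ± 0.84 (SD, n = 5 libraries each), a difference of -0.03 (two-sided exact permutation test over 252 assignments, p = 0.984), and the difference changed sign in 5 of the 10 fits that left out 1 library.

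LHX9 was close to the limit of what could be counted, with 3 to 19 reads per library. It stood at 0.31, 0.15, 0.42, 0.15 and 0.41 CPM in follicular and at 0.24, 0.21, 0.16, 0.07 and 0.16 CPM in luteal libraries 1 to 5. The highest value, in follicular 3, had an exact 95% Poisson interval of 0.18 to 0.84 CPM and the lowest, in luteal 4, one of 0.02 to 0.21 CPM. The phases overlapped, and without the filter on low counts the log2 fold change was -0.74 (SE 0.45, edgeR adjusted p = 0.520). With HCRT it had r = 0.34 (permutation p = 0.334; rho = 0.37, permutation p = 0.294; r = 0.27 without the 2 libraries farthest from the median of HCRT), at counts too sparse to read a relation from.

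Of 14 other genes listed for melanin-concentrating hormone and orexin neurons and their receptors, 11 were tested, 2 higher and 9 lower in luteal libraries, and 0 passed in either direction. The median log2 fold change was -0.21 against 0.01 over all genes tested. HCRTR2, an orexin receptor, averaged 2.101 and 3.067 CPM in follicular and luteal libraries (log2 fold change 0.54, SE 0.20, edgeR adjusted p = 0.426). PDYN, the dynorphin precursor that orexin neurons share with arcuate neurons, averaged 101.7 and 74.5 CPM (-0.45, SE 0.17, adjusted p = 0.426), and GAL, the galanin precursor, 77.96 and 55.84 CPM (-0.48, SE 0.24, adjusted p = 0.429). HCRTR1, the other orexin receptor, averaged 12.3 and 11.1 CPM, and MCHR1, the receptor of melanin-concentrating hormone, 6.91 and 6.70 CPM.

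Over the 10 libraries, among the 21 pairs of the 7 tested genes, 15 had a positive r, 4 had an unadjusted permutation p under 0.05 and 0 passed after adjustment over the 21. The same counts over pairs of all genes were not computed, so these counts are a description and show no covariation particular to the 7 genes. The 4 pairs fell into 2 sets: LMX1A, LMX1B and HDC, and PMCH with HCRT. LMX1A and LMX1B had r = 0.79 (permutation p = 0.00755, adjusted p = 0.089; rho = 0.71, permutation p = 0.0266), LMX1B and HDC r = 0.77 (permutation p = 0.00848, adjusted p = 0.089; rho = 0.82, permutation p = 0.00545), and LMX1A and HDC r = 0.73 (permutation p = 0.015, adjusted p = 0.105; rho = 0.76, permutation p = 0.0149). Reads shared between the related genes LMX1A and LMX1B could not be assessed, since the sources used here do not say how the counting treated them.

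These relations held within each phase in direction, with r of deviations from the phase means of 0.77, 0.76 and 0.67 for the same 3 pairs, and r was lower without the 2 lowest libraries. Without follicular 3 and luteal 2, the libraries farthest from the median of the LMX1 gene, r was 0.39 for LMX1A with LMX1B, 0.62 for LMX1B with HDC and 0.53 for LMX1A with HDC. Both libraries were picked for their distance, which narrows the range and can lower r by itself, so these values are a description. With the first principal component LMX1A, LMX1B and HDC had r of -0.25, -0.25 and -0.13 (permutation p from 0.475 to 0.720, adjusted p from 0.915 to 0.934), and over deviations from the phase means -0.58, -0.46 and -0.53. After regression on it, an alternative added after seeing the data, the 3 pairs had r = 0.78, 0.77 and 0.73. The pair of LMX1A and LMX1B passed without follicular 4 (r = 0.92, permutation adjusted p = 0.0160), and that of LMX1B and HDC without luteal 4 (r = 0.87, permutation adjusted p = 0.0483).

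**Figure D4:**
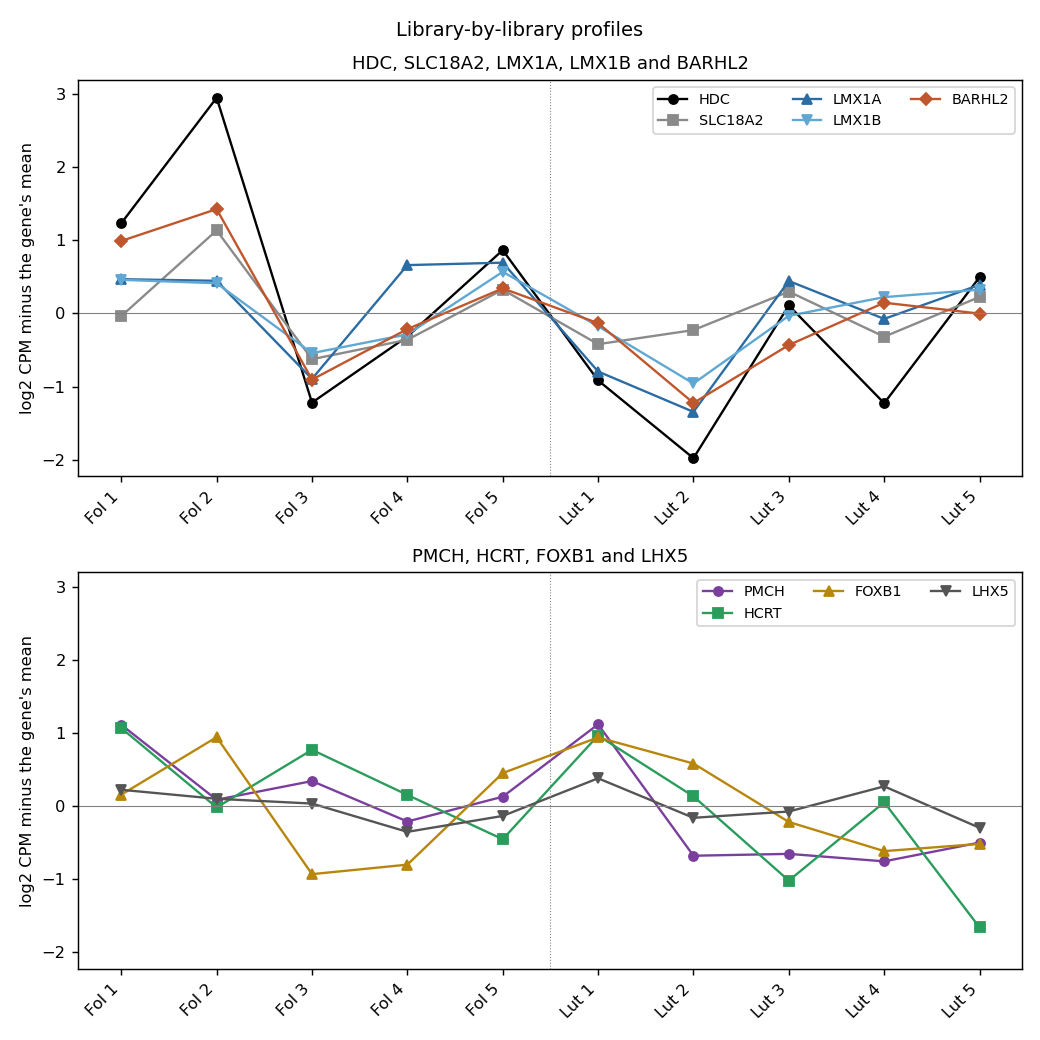
Log2 CPM of each gene minus its own mean (vertical axis) in the 10 libraries (horizontal axis, follicular left and luteal right of the dotted line); lines only join the points of a gene, since libraries have no order. In the upper panel HDC, SLC18A2, LMX1A, LMX1B and BARHL2 are all below their means in follicular 3 and luteal 2 and above them in follicular 5, and in the lower panel PMCH and HCRT both peak in follicular 1 and luteal 1. BARHL2 and SLC18A2 are among the genes most like HDC of all those compared, so their likeness to it here is a description and no test.

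BARHL2, a listed posterior regulator, was among the 3 genes most like HDC and LMX1B, and the others named were on no list. Over the listed mammillary and posterior regulators and markers compared, r with HDC ran from -0.28 (IRX3) to 0.88 (BARHL2). With LMX1B it ran from -0.24 (LHX1) to 0.85 (BARHL2). Over 10 libraries, among 13473 named genes with a mean of at least 1 CPM, the 3 most like HDC were LIPT1, a lipoyltransferase (r = 0.94, rho = 0.96), SPCS3, a signal peptidase subunit (r = 0.90, rho = 0.88), and BARHL2, a homeodomain factor of the diencephalon and close relative of BARHL1 (r = 0.88, rho = 0.77). SLC18A2, listed above, had 4 genes ahead of it (r = 0.86, rho = 0.72). Without follicular 2, the library farthest from the median of HDC, r was 0.79 for BARHL2 and 0.70 for SLC18A2. These genes were picked as the highest of many, so their r is a description and was not tested.

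BARHL2 was also the gene most like LMX1B (r = 0.85, rho = 0.90, and r = 0.79 without luteal 2), ahead of PNMA8A (r = 0.84) and LIPT1 (r = 0.82). It stood at 2.77, 3.74, 0.74, 1.20 and 1.76 CPM in follicular and at 1.27, 0.60, 1.03, 1.54 and 1.39 CPM in luteal libraries 1 to 5. As for HDC, follicular 2 was the highest library and luteal 2 the lowest, and the phases overlapped (log2 fold change -0.81, SE 0.41, edgeR adjusted p = 0.428). Most like LMX1A were RGMB, THAP1 and LTV1, with r from 0.88 to 0.91, and LMX1B itself had 15 genes ahead of it there.

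PMCH and HCRT had r = 0.70 (permutation p = 0.0239, adjusted p = 0.126 over 21 pairs; rho = 0.59, permutation p = 0.0810). Without both follicular 1 and luteal 1, the libraries farthest from the median of PMCH, r was 0.42. It was 0.61 without follicular 1 alone and 0.63 without luteal 1 alone. Leaving out the farthest libraries narrows the range of PMCH and can lower r by itself, so these values are a description. After regression on the first principal component r was 0.52. Of 13472 genes compared, 290 had a higher r with PMCH than HCRT had. From the other side, 2863 had a higher r with HCRT than PMCH had. FOXB1 and LHX5, the mammillary pair, had r = 0.37 (permutation p = 0.279, adjusted p = 0.651; rho = 0.31, permutation p = 0.388), and without follicular 2 and luteal 1 it was 0.02.

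**Figure D5:**
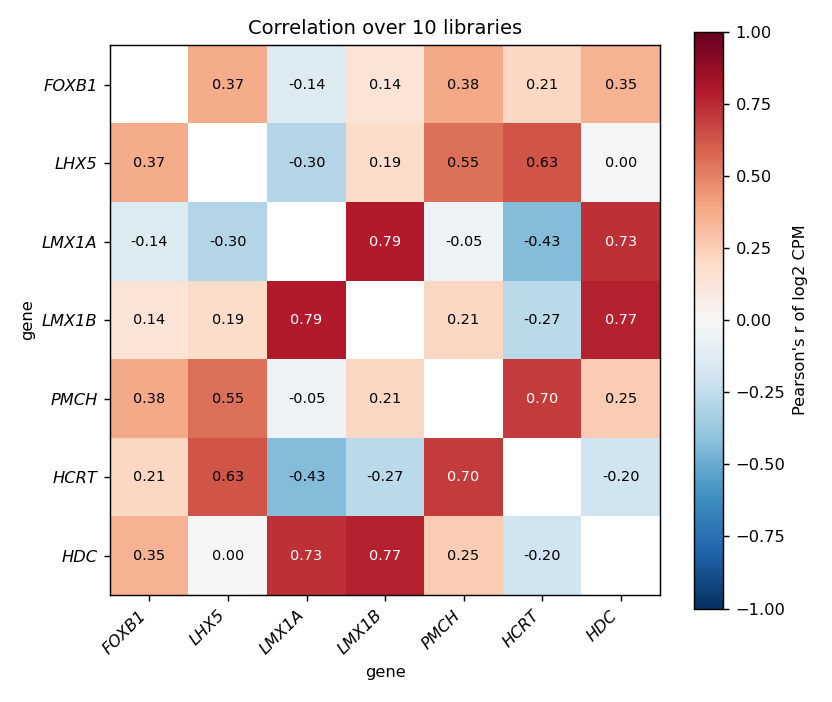
Pearson's r of log2 CPM over 10 libraries for each pair of the 7 tested genes (colour scale from -1 to 1, value printed in each cell). LMX1A, LMX1B and HDC form a block of r from 0.73 to 0.79, PMCH and HCRT have 0.70, and HCRT has negative r with LMX1A, LMX1B and HDC.

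The genes most like the remaining 4 differed from one to the next. For PMCH they were C6H4orf3, PLAC8 and PPP1R17, with r from 0.91 to 0.94, and for HCRT UBTD1, RHBDD2 and CYP2J, with r of 0.97 for each. For FOXB1 they were IRX2, a homeodomain factor (r = 0.93), IRF8, a factor of microglia (r = 0.92), and FOXJ1, the master regulator of motile cilia (r = 0.90). For LHX5 they were CFAP221, a protein of motile cilia (r = 0.92), TMEM235 (r = 0.92) and the kinesin KIF6 (r = 0.89). FOXB1 also had r = 0.81 with the mean score of 9 general neuron genes (permutation p = 0.00794; rho = 0.79, permutation p = 0.00859; r = 0.84 without the 2 libraries farthest from the median score), which did not pass over the 35 relations (adjusted p = 0.0695). PMCH and HCRT each had r = -0.79 with the score of KIT and GATA2 (permutation p = 0.00569 and 0.00603; rho = -0.66 and -0.76; adjusted p = 0.0695 for both; r = -0.68 and -0.63 without the 2 libraries farthest from the median score). With the choroid plexus score PMCH had r = -0.76 (permutation p = 0.0125; rho = -0.73, permutation p = 0.0202; adjusted p = 0.0876; r = -0.70 without follicular 1 and 3, the libraries farthest out). HCRT had r = -0.68 with it (permutation p = 0.0302; rho = -0.73, permutation p = 0.0204; adjusted p = 0.165; r = -0.48 without the same libraries). The genes in that score did not move as one. Their r with PMCH ran from -0.95 (MSX1) to 0.28 (TMEM72), and with HCRT from -0.76 (MSX1) to 0.56 (FOLR1). MSX1 had the lowest r with PMCH of 13472 genes compared. Of the listed genes left out of the score as too low, KCNE2 and CLDN2 each reached at most 0.11 CPM and OTX2 0.27 CPM. The part of choroid plexus in the peptide values was not tested.

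Lists of neighbouring regions and of cell types gave 0 genes past the edgeR test in either direction. The median log2 fold change was -0.26 for 10 tested arcuate and ventromedial genes (4 higher, 6 lower), 0.05 for 9 anterior hypothalamic genes (5 higher, 4 lower), 0.12 for 9 genes of thalamus and habenula (6 higher, 3 lower), 0.06 for 9 general neuron genes (6 higher, 3 lower) and -0.17 for 10 genes of glia and vessels (4 higher, 6 lower). The 2 tested mast cell genes, KIT and GATA2, were both higher in luteal libraries, with a median of 0.28. In the anterior list, the median near 0 covers 3 genes with an unadjusted edgeR p under 0.05, all with lower luteal means: AVP (log2 fold change -1.75), OXT (-1.70) and TRH (-0.80), each with an edgeR adjusted p of 0.426. DESeq2 called TRH (adjusted p = 0.0172) and OXT (adjusted p = 0.0423) and no other gene of the lists. The summed level of the anterior list was 427.3 to 2482 CPM in follicular and 212.2 to 828.3 CPM in luteal libraries.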

How the data were processed

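TriReagent was used for RNA extraction and a stranded TruSeq mRNA kit for the libraries, per the labels' protocols. Among the tools in the submitters' processing notes are featureCounts 2.0.0, TopHat2 2.1.1 and Bowtie2 2.3.5.1. The genome build, strand setting and treatment of shared reads are not given in the sources used here, so no coordinates are given. The authors deposited raw read counts for each gene in 1 table of 10 libraries, with no scaling.

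Counts were tested in R 4.3.3 with the two-sided quasi-likelihood test of edgeR 4.0.16, on phase alone, after filterByExpr (minimum count 10, minimum total 15) and TMM scaling, with Benjamini-Hochberg adjustment over 18276 genes. Correlations were computed on log2 CPM (prior count 2) with 100000 permutations. Scores are means over the tested genes of a list of log2 CPM centred on the 10 libraries. The exact test over 252 assignments cannot go below p = 0.00794. Alternatives were RLE and upper-quartile scaling, other filters, the replicate number or the first principal component in the model, leaving out libraries, DESeq2 1.42.0 and limma-voom (limma 3.58.1).

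Members and lists were chosen with earlier results of these data known. Named were all members, up to 3 genes of each list by smallest p, the 3 genes most like each tested member, and pairs with an adjusted permutation p under 0.05, with HCRT and PMCH, LHX9 and HCRT, LMX1A and LMX1B, and FOXB1 and LHX5 named always. The result of a further listed gene is left out here. Other named genes and pairs were chosen after their values were seen. Replicates are mixes of separate animals, and p-values reflect the spread between those mixes.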

Additional observations from a re-analysis of the deposited data

Results flagged for a closer look

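Within each phase the highest and the lowest library were checked with Dixon's ratio, the distance to the next value over the whole range, against its 95% limit for 5 samples, 0.71. This was done for the 9 genes, the ratio of HCRT to PMCH and the listed genes with the smallest p. The limit was passed 10 times in 84 groups of 5 libraries, and chance gives about 1 in 20, or 4.2. That rate holds for independent, normally distributed groups, and these are untransformed values from the same 10 libraries. The share over all genes tested was not computed, so no excess is shown.

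Among the 9 genes there were 4 such libraries. HDC was 90.7 CPM in follicular 2, and the next follicular library had 27.6 CPM (ratio 0.737). PMCH was 26.08 CPM in luteal 1, and the next luteal library had 8.50 CPM (0.927). LMX1A was 0.32 CPM in follicular 3 against at least 0.81 CPM in the others (0.763), on 6 reads. BARHL1 was 0.11 CPM in follicular 4 against at least 0.20 CPM in the others (0.776), on 3 reads.

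Among the listed genes follicular 5 stood apart 2 times, with WIF1 high at 171.3 CPM and RBFOX3 low at 34.8 CPM. Luteal 1 stood apart with STMN2 high at 518.4 CPM and PECAM1 low at 34.7 CPM. CHRNB4 was high in follicular 4 at 19.7 CPM and HRH2 low in luteal 2 at 4.76 CPM.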

How the results depend on the processing

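Over the planned and added alternatives 0 of the 9 genes were called in any fit, and the lowest adjusted p of a tested gene was 0.0935, for HDC without follicular 5. The direction of HDC, PMCH, LMX1A and LMX1B was the same in all. FOXB1 turned to -0.045 in the fit with the first principal component and to -0.19 without follicular 1 and 3 together, and HCRT to 0.20 and 0.058 under the same settings. With 1 library left out FOXB1 ran from -0.26 to 0.32 and LHX5 from -0.034 to 0.14, the ratio of HCRT to PMCH from -0.23 to 0.26 (log2), HDC from -2.20 to -0.86, LMX1A from -0.70 to -0.33, LMX1B from -0.38 to -0.10, PMCH from -1.01 to -0.18 and HCRT from -0.85 to -0.21. HDC was -2.71 with the component as a covariate. Over all genes DESeq2 called 29 where edgeR called 0, and leaving out 1 library gave 0 to 1 genes, the 1 being without luteal 4. The count of pairs passing was 0 to 1 with 1 library left out. Replicate numbers are shared between phases but mark random mixes: same-numbered libraries had r from -0.33 to 0.63 in their deviations, and 3 of 5 follicular libraries correlated best with their own number. With the replicate number as a block 0 genes were called, with log2 fold changes of -1.31 for HDC (edgeR adjusted p = 0.293), -0.58 for PMCH (0.143) and -0.59 for HCRT (0.210). The cause of these turns was not tested. Depth limits BARHL1 and LHX9, at 3 to 19 reads per library, and LMX1A, at 6 to 44.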
